A study of Sus scrofa with 9 samples.

Results

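The genes described here bring iron into liver cells and sense it there: TFRC, TFR2, TF, SLC11A2, SLC39A14, STEAP3, ACO1, IREB2 and FBXL5. They were chosen by symbol, as known genes of iron uptake and of the iron regulatory proteins, and these 9 symbols stand on 10 of the 25918 genes in the expression table. TF stands on 2 neighbouring genes of chromosome 13, of which the annotation describes one as transferrin and the other as porcine inhibitor of carbonic anhydrase (PICA), so the latter is reported under that name and not as transferrin. All 10 passed the filter on low values, a mean of at least 0.5 FPKM over the libraries. FPKM is a level per length of transcript and per mapped fragment of the library.

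The study asked how the amount of iron in the feed changes liver gene expression in the Wujin pig, a breed from southwest China. Liver RNA came from 9 pigs, 3 to each of the groups named low-iron, control and high-iron, and each library is one pig, named by its group and its animal number. All groups received the same basic diet, and iron glycinate supplied no added iron (0 mg/kg) in the low-iron group, 100 mg/kg of iron in the control group and 200 mg/kg in the high-iron group, so the low-iron diet was a diet without added iron and not one made free of iron. The pigs were 35 days old at the start and were fed for 30 days after 5 days of prefeeding. The study used males and females, and the sex of the sequenced pigs is not in the labels. Summed FPKM ranged from 416922 to 456420 a library and 16235 to 17817 genes had a value above 0. The table holds no read counts per gene, so no counting error could be given for a value. The spread between pigs within the 3 groups was the measure of error used here. Hepatocyte markers were high in every library, with a summed level of 64679 to 89692 FPKM. In whole liver tissue, fewer cells of a type and less RNA per cell cannot be told apart.

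Iron travels in plasma bound to transferrin, and cells take the loaded protein up through the transferrin receptor, release the iron in acid endosomes, reduce it and pump it into the cytosol. The iron regulatory proteins, ACO1 (IRP1) and IREB2 (IRP2), bind a short RNA hairpin, the iron-responsive element, when the cell is short of iron. Bound behind the coding sequence of TFRC they protect the mRNA from decay, and bound in front of the coding sequence of ferritin they block its translation.

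TFRC was the member that differed most between diets, so the elements behind its coding sequence are shown first. The sense strand of Sscrofa11.1 was searched for a C, 5 bases, the loop CAGTGN and 5 bases that pair with the first 5. Within 2000 bases after the stop codon TFRC had 4 matches, on the plus strand of chromosome 13, and they are printed with the loop in capitals and 5 further bases on either side. In order they lie at chr13:133998467-133998493, chr13:133998877-133998903, chr13:133998942-133998968 and chr13:133998989-133999015.
TFRC element 1: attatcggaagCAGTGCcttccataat
TFRC element 2: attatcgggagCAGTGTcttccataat
TFRC element 3: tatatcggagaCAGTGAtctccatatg
TFRC element 4: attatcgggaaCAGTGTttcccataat
Elements 1, 2 and 4 share the outer bases attatcgg in front of the loop and ccataat at the end. Of the windows of the same length behind 20647 genes, 197 (0.954%) had at least 1 match, 2 had 2 or more and TFRC alone had 4. The matches begin 971 to 1493 bases after the stop codon, whereas the annotated TFRC transcript ends 53 bases after it, so all 4 lie downstream of the annotated gene.

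**Figure D1:**
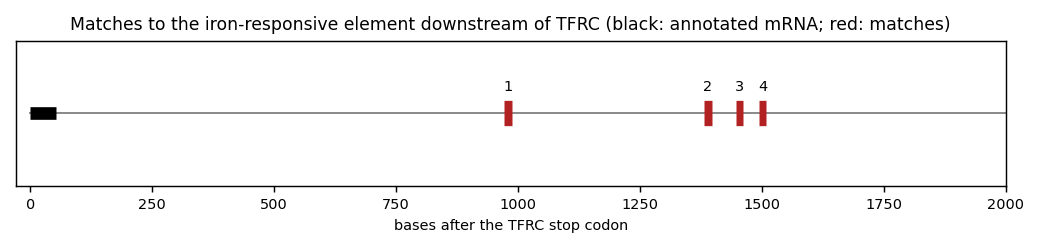
Matches to the iron-responsive element behind TFRC, drawn to scale, with the distance in bases after the stop codon on the horizontal axis. The 4 matches (red) begin 971, 1381, 1446 and 1493 bases after the stop codon, past the 53 bases of the annotated mRNA (black).

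The same search in the 300 bases of mRNA before the start codon found 1 match each in FTH1 and FTL, the subunits of the iron store ferritin, and in SLC40A1, the iron exporter ferroportin. They are shown because this placement is the one known to block translation.
FTH1 element, chr2:9535176-9535202, plus strand: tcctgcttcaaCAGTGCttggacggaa
FTL element, chr6:54231195-54231221, plus strand: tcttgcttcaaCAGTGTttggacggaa
SLC40A1 element, chr15:94161661-94161687, minus strand: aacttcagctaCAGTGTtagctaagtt
The match was found before the start codon of 30 of 17787 genes (0.169%), among them also ALAS2. It was found in neither window of TFR2, TF, PICA, SLC11A2, SLC39A14, STEAP3, ACO1, IREB2 or FBXL5, which says only that these letters do not stand in these windows. The annotated SLC11A2, SLC39A14 and STEAP3 end 4551, 2880 and 2424 bases after the stop codon, past the 2000 bases searched. Behind the stop codon, only the mRNA with the longest coding sequence was searched. EPAS1, CDC14A, CDC42BPA, HAO1 and PFN2, on the list below of mRNAs with a known element, also had no match in either window. The FPKM of SLC11A2 covers its 6 annotated mRNAs together.

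TFRC, the receptor that carries transferrin-bound iron into the cell (chr13:133976765-133997554, plus strand), measured 87.9, 129.8 and 28.6 FPKM in low-iron pigs 2, 3 and 7. It measured 6.51, 17.04 and 7.51 FPKM in control pigs 4, 5 and 6, and 40.6, 15.9 and 18.5 FPKM in high-iron pigs 2, 7 and 8. Every low-iron pig was above every control pig, and low-iron pig 7 lay below high-iron pig 2. The group means were 82.1 ± 50.8, 10.4 ± 5.81 and 25.0 ± 13.6 FPKM (SD, n = 3 each), so that within each group the highest pig had 2.56 to 4.54 times the level of the lowest.

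Genes were called changed at a fold change of at least 2 with an unadjusted p under 0.05, the thresholds of the study, here with limma on log2(FPKM + 0.1). The SE, interval and p of limma use the spread within all 3 groups together, moderated by that of the other genes tested. TFRC rose 7.25-fold in the low-iron group against control (95% CI 3.05 to 17.2), a log2 fold change of 2.86 with SE 0.56. Its limma p was 0.000412 and its Benjamini-Hochberg adjusted p over the 12584 genes tested was 0.9998. By p it ranked 3 of those 12584 genes and by log2 fold change 7. The two-sided exact permutation test of the 3 low-iron and 3 control pigs gave p = 0.1, the smallest that 3 against 3 allow. Left out one at a time, no pig ended the call, and the log2 fold change ranged from 2.40 without low-iron pig 3 to 3.49 without low-iron pig 7. The linear fold is 5.28 without low-iron pig 3 and 11.2 without low-iron pig 7.

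In the high-iron group TFRC rose 2.41-fold against control (95% CI 1.02 to 5.73), with a limma adjusted p of 0.892 and an exact permutation p of 0.2. The unadjusted limma p of 0.0466 lay close to the threshold, and no exact permutation test of 3 against 3 can go below 0.1. The call was lost without high-iron pig 2, the highest of its group, where the log2 fold change went from 1.27 to 0.86. It was also lost without control pig 4 (1.01), control pig 6 (1.11), high-iron pig 8 (1.42) or low-iron pig 2 (1.27, at an unadjusted limma p of 0.0547), and under other settings, among them a pseudocount of 1 (1.19) and median-of-ratios scaling (1.16). Compared with low-iron pigs, high-iron pigs had 0.333 times the TFRC level (95% CI 0.14 to 0.79), a fall that was called, with a limma adjusted p of 0.640 and an exact permutation p of 0.2. That call was lost without low-iron pig 3, where the log2 difference went from -1.59 to -1.13, and without low-iron pig 2 (-1.41), high-iron pig 7 (-1.33) or high-iron pig 8 (-1.44). Both comparisons with control share the same 3 control pigs. Over the 3 groups together, the exact permutation F test of the TFRC level gave p = 0.0357 over all 1680 assignments. With 1 pig left out that exact p was 0.0107 to 0.0857, and it was not under 0.05 without low-iron pig 2 or 3, control pig 4 or 6, or high-iron pig 8.

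One of the 10 genes, TFRC, was called in each comparison. Of all 12584 genes tested, 0.882% were called in the low-iron group against control, 1.57% in the high-iron group against control and 1.54% between the high-iron and low-iron groups. With limma's adjusted p under 0.05, 0 of the 10 genes passed in any comparison, and 0.0%, 0.00795% and 0.0% of all genes tested did so. At an unadjusted limma p under 0.05 stood 2, 1 and 2 of the 10 genes, and 463, 704 and 900 of all genes. Groups did not overlap in 2, 0 and 1 of the 10 genes, against 8.34%, 10.9% and 13.2% of all genes tested. The median log2 fold change over the 10 genes was 0.11, -0.09 and -0.14, beside 0.08, 0.10 and 0.03 over all genes tested.

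**Figure D2:**
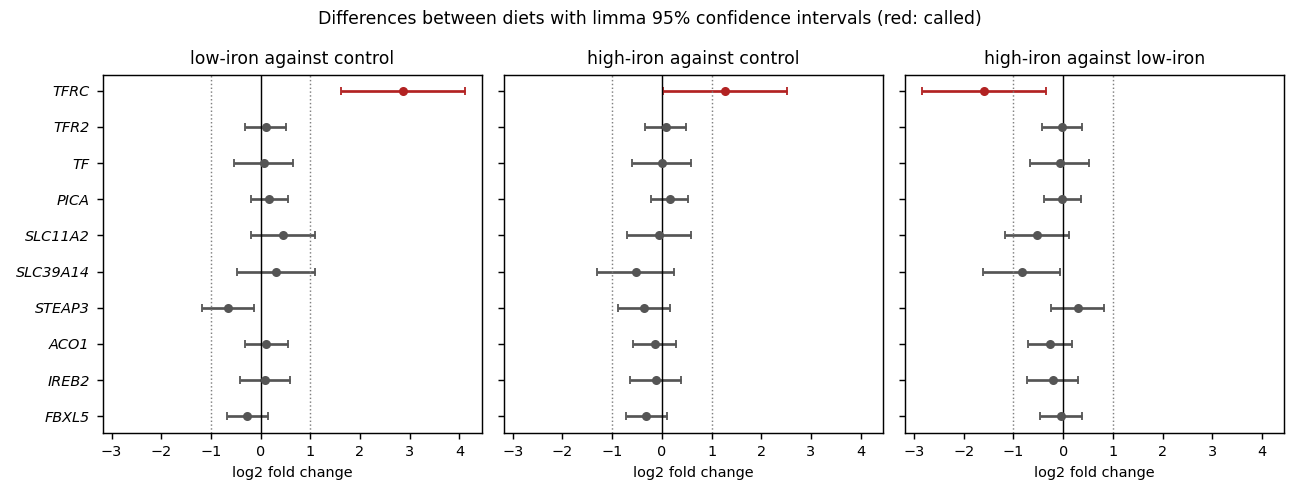
Log2 fold change of each gene (horizontal axis) in the 3 comparisons, with limma 95% confidence intervals and dotted lines at a fold change of 2. TFRC (red) is the called gene in each panel, at 2.86, 1.27 and -1.59, and the intervals of the other genes include 0 except for STEAP3 in the low-iron group against control and SLC39A14 between the high-iron and low-iron groups.

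TFR2, the second transferrin receptor, which hepatocytes use to sense loaded transferrin (chr3:8539316-8553993, minus strand), measured 190.0, 183.5 and 145.3 FPKM in the low-iron pigs. It measured 186.8, 141.3 and 156.1 FPKM in the controls and 178.5, 170.0 and 159.3 FPKM in the high-iron pigs. All groups overlapped. The fold against control was 1.07 in the low-iron group (95% CI 0.807 to 1.42) and 1.05 in the high-iron group (95% CI 0.794 to 1.40). TFR2 was the more abundant receptor per length in every pig, and the level of TFRC divided by that of TFR2 was 0.463, 0.707 and 0.197 in the low-iron pigs, 0.0349, 0.121 and 0.0481 in the controls and 0.228, 0.0934 and 0.116 in the high-iron pigs. Each low-iron ratio except that of pig 7 was above all others, and pig 7 was above every control.

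TF, the plasma carrier that hepatocytes secrete (chr13:74930655-74970599, plus strand), was the most abundant of these genes, at rank 5 of the 25918 genes by mean level and 1.23% to 1.82% of the summed FPKM. It measured 7232, 7590 and 5573 FPKM in the low-iron pigs, 6127, 6988 and 6268 FPKM in the controls and 5773, 7125 and 6464 FPKM in the high-iron pigs. The groups overlapped, and the folds against control were 1.04 (95% CI 0.694 to 1.57) and 0.997 (95% CI 0.662 to 1.5). PICA, a transferrin-like protein of pig plasma known for binding carbonic anhydrase (chr13:74862502-74907059, plus strand), lay between 221.1 and 284.9 FPKM in all pigs, and transferrin stood 21.4 to 28.1 times above it. Its folds against control were 1.13 (95% CI 0.875 to 1.46) and 1.12 (95% CI 0.865 to 1.45). Since the genes are related in sequence and adjacent, reads shared between them could be assigned to either, so the PICA level is uncertain.

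STEAP3, the ferrireductase that reduces iron in the endosome so that it can be pumped out (chr15:24736556-24785376, plus strand), measured 18.5, 18.0 and 17.9 FPKM in the low-iron pigs. The controls measured 34.2, 19.0 and 35.6 FPKM and the high-iron pigs 19.5, 22.7 and 24.5 FPKM. The low-iron pigs were all below all controls and all high-iron pigs, though control pig 5 missed the low-iron range by less than 1 FPKM. The coefficient of variation was 1.69% in the low-iron group and 31.1% in the controls. The fold of the low-iron group against control was 0.636 (95% CI 0.443 to 0.915), which did not reach the fold threshold, with an unadjusted limma p of 0.0193, an adjusted p of 0.9998 and an exact permutation p of 0.1. The direction stayed the same under every alternative tried. The fold of the high-iron group was 0.777 against control (95% CI 0.541 to 1.12) and 1.22 against low-iron (95% CI 0.85 to 1.76). The exact permutation F test over the groups gave p = 0.0821, and p = 0.0036 without control pig 5.

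SLC11A2, the divalent metal transporter that moves iron from the endosome into the cytosol (an unplaced scaffold, 341375 to 380525, plus strand), was the least abundant of these genes. It measured 6.62, 13.3 and 7.33 FPKM in the low-iron pigs, 8.44, 5.97 and 4.90 FPKM in the controls and 5.45, 5.62 and 7.11 FPKM in the high-iron pigs. Low-iron pig 3 stood above all others and the groups overlapped. The folds were 1.37 for low-iron against control (95% CI 0.878 to 2.15), 0.959 for high-iron against control (95% CI 0.614 to 1.5) and 0.699 for high-iron against low-iron (95% CI 0.447 to 1.09).

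SLC39A14, the transporter ZIP14 that takes up iron not bound to transferrin (chr14:6639485-6687929, plus strand), measured 84.7, 173.1 and 77.9 FPKM in the low-iron pigs. It measured 104.7, 67.6 and 85.2 FPKM in the controls and 88.6, 41.0 and 55.1 FPKM in the high-iron pigs. Low-iron pig 3 was again the highest, and high-iron pigs 7 and 8 were the lowest. The fold of high-iron against low-iron was 0.560 (95% CI 0.326 to 0.96), with an unadjusted limma p of 0.0375, an adjusted p of 0.686 and an exact permutation p of 0.3, so it was not called. Without low-iron pig 7 or without high-iron pig 2 it would be called, at log2 differences of -1.05 and -1.14. The low-iron against control fold was 1.24 (95% CI 0.721 to 2.12), and its log2 value went from 0.31 to -0.06 without low-iron pig 3.

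**Figure D3:**
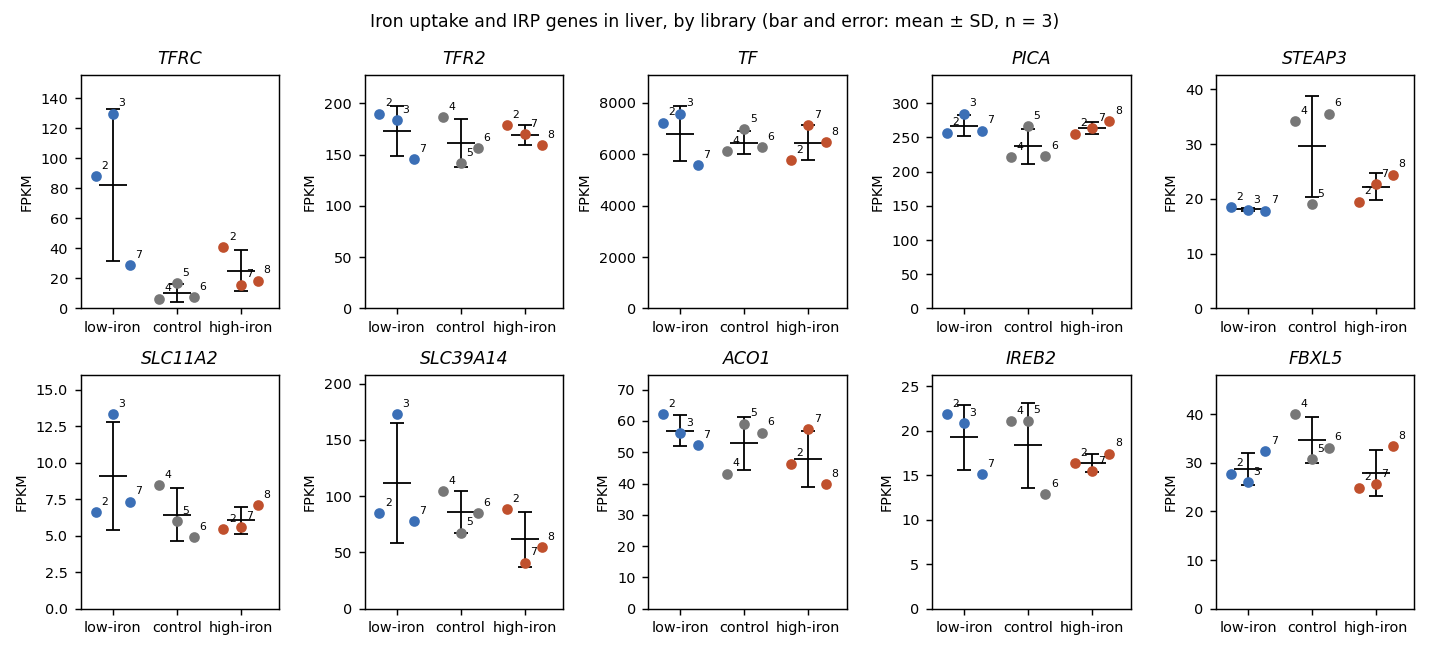
FPKM of the 10 genes (vertical axes, from 0) in each pig by group, with animal numbers beside the points and the mean and SD of 3 pigs in black. TFRC runs from 6.51 to 129.8 FPKM and the low-iron STEAP3 points lie together at 17.9 to 18.5 FPKM, while the groups of TFR2, TF, PICA, ACO1, IREB2 and FBXL5 overlap.

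The sensors differed less. ACO1, the cytosolic aconitase that turns into iron regulatory protein 1 when its iron-sulfur cluster is lost (chr10:33937833-34001895, minus strand), measured 62.3, 56.1 and 52.4 FPKM in the low-iron pigs, 43.2, 59.1 and 56.2 FPKM in the controls and 46.3, 57.3 and 39.8 FPKM in the high-iron pigs. The folds against control were 1.08 (95% CI 0.803 to 1.46) in the low-iron group and 0.902 (95% CI 0.668 to 1.22) in the high-iron group. IREB2, which is iron regulatory protein 2 and is controlled by degradation of the protein (chr7:47481539-47529199, minus strand), measured 21.9, 20.8 and 15.1 FPKM in the low-iron pigs, 21.1, 21.1 and 12.8 FPKM in the controls and 16.4, 15.4 and 17.4 FPKM in the high-iron pigs. Its folds against control were 1.06 (95% CI 0.746 to 1.52) and 0.917 (95% CI 0.643 to 1.31). The groups overlapped for both genes. ACO1 stood above IREB2 per length in every pig, by 2.05 to 4.38 times.

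FBXL5, the subunit that lets a ubiquitin ligase recognise IREB2 when iron is present (chr8:10915526-10987374, minus strand), measured 27.8, 26.0 and 32.4 FPKM in the low-iron pigs. The controls measured 40.1, 30.8 and 33.1 FPKM and the high-iron pigs 24.9, 25.6 and 33.4 FPKM. The control group had the highest mean, but pigs of all groups overlapped, and the folds against control were 0.830 (95% CI 0.623 to 1.11) and 0.805 (95% CI 0.604 to 1.07). For TFR2, TF, PICA, ACO1, IREB2 and FBXL5, none of these intervals reached a fold of 2 or of 0.5. Differences inside the intervals could not be resolved for them with 3 pigs a group.

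In the controls, the order of the mean FPKM was TF, PICA, TFR2, SLC39A14, ACO1, FBXL5, STEAP3, IREB2, TFRC and SLC11A2. Neighbours from TF down to FBXL5 did not overlap between libraries, while each neighbouring pair from FBXL5 down to SLC11A2 did. TFRC stood at place 9 in the controls, at place 5 in the low-iron group, where its libraries overlapped those of SLC39A14 above and ACO1 below, and at place 7 in the high-iron group, where it overlapped FBXL5 above and STEAP3 below.

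The other genes of the pathway were described by lists of known genes. Of 16 tested genes that work with the transferrin receptor or in endosomal iron release, 0 were called in any comparison and 0 had an unadjusted limma p under 0.05. Their median log2 fold change was 0.02, 0.13 and 0.13 in the low-iron against control, high-iron against control and high-iron against low-iron comparisons. The 3 with the lowest p were EXOC6, a subunit of the exocyst needed for transferrin cycling, DNM2, the dynamin of endocytosis, and ATP6AP1, an accessory subunit of the proton pump. EXOC6 differed by 0.50 on the log2 scale between the high-iron and low-iron groups (SE 0.23, limma adjusted p = 0.711).

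Of 14 tested genes for iron entry without transferrin, 0 were called. In the high-iron group against control, CYBRD1, a ferric reductase, measured a log2 fold change of 0.57 (SE 0.20) and CD163, the macrophage receptor for haemoglobin bound to haptoglobin, of 0.57 (SE 0.17), whereas SLC46A1, a folate and heme carrier, measured -0.48 (SE 0.22), all with unadjusted limma p under 0.05 and adjusted p of 0.885 to 0.892. The median over this list was 0.11, -0.02 and -0.06 in the same order of comparisons.

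Of 8 tested genes of the FBXL5 ubiquitin ligase and its sensors, and of 14 of cytosolic iron-sulfur assembly, which makes the cluster that ACO1 carries, 0 were called. CIAO1 and MMS19, which stand on both lists and act in the targeting complex for iron-sulfur clusters, measured log2 differences of -0.42 (SE 0.16) and -0.54 (SE 0.22) in high-iron against low-iron pigs, with limma adjusted p of 0.656 and 0.667. FAM96B, which also stands on both lists, differed by -0.12 (SE 0.21) in that comparison. CUL1, the scaffold of the ligase, differed by -0.13 there and by 0.26 (SE 0.16) in the low-iron group against control. NDOR1, the reductase that feeds electrons to this assembly, measured 0.73 (SE 0.26) in the low-iron group against control, with a limma adjusted p of 0.9998. The list medians were 0.19, 0.06 and -0.11 for the ligase and 0.14, -0.06 and -0.14 for the assembly genes.

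Of 10 tested genes that act on transferrin receptor mRNA decay or transcription, 0 were called and 0 had an unadjusted limma p under 0.05. ZC3H12A, the ribonuclease Regnase-1, differed by -0.52 (SE 0.25) between the high-iron and low-iron groups, HIF1A, the hypoxia factor, by 0.38 (SE 0.21), and MYC by 0.80 (SE 0.44) in the low-iron group against control. MYC measured 10.04 FPKM in low-iron pig 3 and 2.19 to 4.53 FPKM in all other pigs. The list medians were -0.04, 0.18 and 0.19.

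The list of mRNAs with a known iron-responsive element leaves out TFRC and SLC11A2, which are given above and of which TFRC was called. Of the 10 tested mRNAs on this list 0 were called, and the list medians were 0.10, 0.08 and -0.07. SLC40A1 measured a log2 fold change of 0.41 (SE 0.18) in the high-iron group against control, with a limma adjusted p of 0.892. CDC42BPA, a kinase, and ALAS2, the erythroid enzyme that starts heme synthesis, differed by 0.45 (SE 0.24) and -1.17 (SE 0.62) between the high-iron and low-iron groups, with unadjusted limma p of 0.0856 and 0.0882. FTH1, with the element in front of its coding sequence, measured 2024 to 2862 FPKM in the low-iron pigs, 1915 to 2667 FPKM in the controls and 1450 to 2094 FPKM in the high-iron pigs, with all groups overlapping. FTL measured 2315 to 3360, 2905 to 3863 and 2131 to 3071 FPKM in the same groups, which also overlapped.

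Genes of hepcidin control and iron stores gave 0 calls among 10 tested, with medians of 0.10, -0.08 and -0.15. BMP6, the ligand that drives hepcidin, measured log2 0.83 (SE 0.28) in the low-iron group against control and -0.88 (SE 0.28) in high-iron against low-iron pigs, with limma adjusted p of 0.9998 and 0.615. HMOX1, which breaks down heme, measured 0.65 (SE 0.29) in the low-iron group against control, with an adjusted limma p of 0.9998. HAMP, which encodes hepcidin, the hormone that closes ferroportin, measured 3.84, 2.02 and 70.5 FPKM in low-iron pigs 2, 3 and 7. It measured 50.3, 42.0 and 16.2 FPKM in the controls and 52.3, 6.87 and 21.8 FPKM in the high-iron pigs. The low-iron pigs with the highest TFRC, 2 and 3, had the lowest HAMP of all pigs, and low-iron pig 7, with the lowest TFRC of its group, had the highest HAMP of all pigs. In the high-iron group it was otherwise, as pig 2 had both the highest TFRC and the highest HAMP.

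TFRC is also high in red cell precursors and in dividing cells, so markers of both were summed in the same libraries. The erythroid list has 15 genes, of which 8 were under 0.5 FPKM in every pig, and 2 of these, KLF1 and RHAG, were at 0 in every pig. Its sum, nearly all beta globin (HBB), was 479 to 2458 FPKM in the low-iron pigs, 215 to 1453 FPKM in the controls and 353 to 843 FPKM in the high-iron pigs. In low-iron pigs 2, 3 and 7 the erythroid sum was 1431, 479 and 2458 FPKM. The sum of the dividing cell markers was 23.3 to 30.3, 23.2 to 32.1 and 22.2 to 32.7 FPKM in the 3 groups, which overlapped. Of the erythroid and dividing cell markers that passed the filter, 0 of 5 and 0 of 13 were called in any comparison, and the erythroid medians were 0.97, -0.13 and -0.98. Of the 5 tested erythroid markers, 4 were higher in the low-iron group against control, HBB (log2 1.00, SE 0.72), ALAS2 (0.97, SE 0.62), HBM (0.89, SE 0.85) and HEMGN (1.00, SE 0.49). TRIM10 was lower (-0.90, SE 0.53), and the limma adjusted p of each was 0.9998. HEMGN averaged 0.863 FPKM in the low-iron pigs, 0.365 FPKM in the controls and 0.463 FPKM in the high-iron pigs. It therefore passed the filter of 0.5 FPKM only through the low-iron group. The dividing cell markers with the lowest p in any comparison, MCM5, MKI67 and CCNB1, measured -0.69 (SE 0.34), -0.13 (SE 0.39) and -0.30 (SE 0.81) in the low-iron group against control. Of the 13 tested markers of dividing cells, 8 had a negative log2 fold change there and 5 a positive one. PCNA, the most abundant of the 13, was among the positive ones (0.28, SE 0.20). The lowest p of MKI67 was in high-iron against low-iron pigs (0.59, SE 0.39). That of CCNB1 was in the high-iron group against control (-1.14, SE 0.81). There high-iron pig 2 was at 0 FPKM, and pigs 7 and 8 were at 1.33 and 0.912 FPKM. The controls had 0.942 to 1.12 FPKM of CCNB1, so this value rests on the pig at 0. The part of cell composition in the TFRC difference was not tested.

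**Figure D4:**
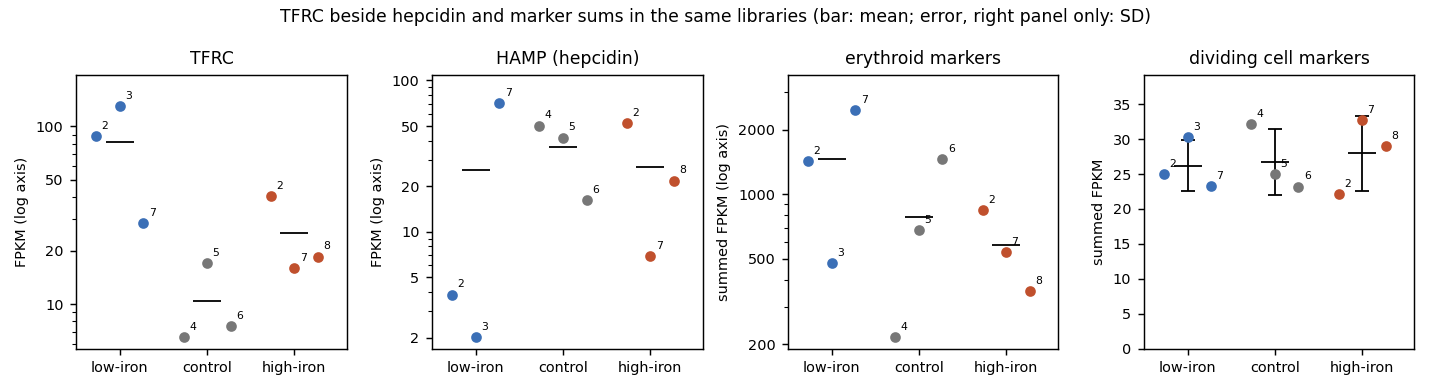
TFRC and HAMP levels (FPKM, log axes), the summed level of 15 erythroid markers (log axis) and of 14 dividing cell markers (from 0) in the same 9 pigs, with animal numbers, group means as bars and the SD in the right panel. Low-iron pigs 2 and 3 have the highest TFRC and the lowest HAMP, and the marker sums of the groups overlap.

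Some markers of other liver cell types also rose in the high-iron group. The summed level of the 11 macrophage markers was 1141 to 1373 FPKM in the high-iron pigs, above the 955 to 1128 FPKM of the low-iron pigs and the 863 to 1104 FPKM of the controls, and 7 of the 11 had an unadjusted limma p under 0.05 against control, with 0 called. Those with the lowest p were VSIG4 (log2 0.61, SE 0.16), CSF1R (0.59, SE 0.17) and CD163 (0.57, SE 0.17). Of the 11 macrophage markers 10 were higher than in the controls and 1 was lower. The lower one was CD5L (-0.22, SE 0.17), which averaged 308 FPKM in the controls and 265 FPKM in the high-iron pigs. MARCO measured 0.0004 (SE 0.53). The stellate cell gene COL1A1 (log2 1.53), the endothelial gene VWF (1.68) and the T cell gene CD8A (1.01) were called in the high-iron group against control, with limma adjusted p of 0.885 each. Between the high-iron and low-iron groups COL1A1 (1.51), COL1A2 (1.05), CD8A (1.03) and the bile duct gene SPP1 (1.02) were called, with adjusted limma p of 0.615 to 0.697. In the high-iron group against control, 7 of 7 tested stellate and 7 of 8 endothelial markers were higher. So were 4 of 5 bile duct and 6 of 6 T and NK cell markers. Against low-iron pigs 5, 7, 4 and 6 of these were higher, in the same order of lists. The stellate markers ACTA2 (-0.24) and PDGFRB (-0.16), the bile duct marker EPCAM (-0.22) and the endothelial marker STAB2 (-0.17) were lower there. In the low-iron group against control, 0 of the markers of these cell types were called, and 1, the endothelial gene STAB2, had an unadjusted limma p under 0.05 at log2 0.59 (SE 0.23). Hepatocyte markers gave 0 calls in any comparison, and CPS1, an enzyme of the urea cycle, CYP2E1 and APOA1 measured -0.88 (SE 0.24), -0.44 (SE 0.27) and 0.21 (SE 0.32) in the high-iron group against control. APOA1 measured 0.47 (SE 0.32) in the low-iron group against control. The part of these cells in the high-iron values of TFRC and SLC39A14 was not tested.

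Across the 9 pigs, the named genes whose log2 level was most like that of TFRC were UBAP2L (Pearson r = 0.915), NCL (0.901), TMEM125 (0.894), EIF5B (0.891), ABCC3 (0.886), KHSRP (0.882), WBP11 (0.879) and STAB2 (0.869). These values describe 9 libraries that share the diet groups. TMEM125, a membrane protein, measured 0.749, 1.24 and 0.768 FPKM in the low-iron pigs and 0.091 to 0.242 FPKM in the controls. It was called in the low-iron group against control, at a log2 fold change of 1.83. Its mean was 0.919 FPKM in the low-iron pigs, 0.191 FPKM in the controls and 0.395 FPKM in the high-iron pigs. TMEM125 therefore passed the filter on low values only through the low-iron group. It was also picked for its likeness to TFRC over the same pigs, so this call does not stand apart from that of TFRC. NCL, the nucleolar protein nucleolin, measured 72.2 to 76.8 FPKM in the low-iron pigs, 52.6 to 59.1 FPKM in the controls and 56.7 to 63.5 FPKM in the high-iron pigs, so its low-iron pigs stood above all others, at log2 differences of 0.40 from control and -0.28 for high-iron against low-iron. STAB2, a marker of the sinusoidal endothelium, measured 18.9 to 27.5 FPKM in the low-iron pigs, 11.8 to 21.1 FPKM in the controls and 18.8 to 21.9 FPKM in the high-iron pigs, which overlapped, and the summed level of the 8 endothelial markers was 202 to 268, 201 to 235 and 246 to 292 FPKM. The part of these cells in the TFRC values was not tested. For the other genes except ACO1 the highest r was 0.961 for TFR2 (IGF2BP3), 0.950 for TF (GDF10), 0.928 for PICA (CHUK), 0.978 for STEAP3 (FLOT2), 0.964 for SLC11A2 (TRMT12), 0.944 for SLC39A14 (ATG13), 0.981 for IREB2 (NCOA2) and 0.890 for FBXL5 (MON1B).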

How the data were processed

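Liver RNA-seq of 9 Wujin pigs was used, 3 to a diet group. Per the study's methods and the submitters' processing notes, the authors trimmed and filtered the reads, mapped them with HISAT2 (build Sscrofa11.1) and used StringTie for transcript assembly. What they deposited is a single table of FPKM per gene and library, for which the sources name no other scaling. The table has no counts, so the count test of the study could not be run. Its 20660 numbered genes were named by their order in NCBI annotation release 106 of Sscrofa11.1, since at that numbering all of them fall on protein-coding genes, and the 5258 new genes had no name. Groups come from the series' design text and animal numbers from the sample titles.

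Genes averaging at least 0.5 FPKM, 12584 in all, entered one limma fit of log2(FPKM + 0.1) over the 3 groups with empirical Bayes and a trend (R 4.3.3, limma 3.58.1). A fold is 2 to the power of the log2 difference, which understates changes of low genes. Benjamini-Hochberg adjustment ran over all genes tested. Exact permutation tests were two-sided (Python 3.11.15, scipy 1.17.1). P-values rest on the spread between these pigs, which for limma is pooled over the 3 groups and moderated by the other genes tested. The fit was tested on simulated data.

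Members and gene lists were chosen with earlier results of these data known. From each list the genes called, or else the 3 with the lowest p in any comparison, were named, with HAMP, FTH1, FTL and SLC40A1 as signs of iron status. Genes like each member were ranked by Pearson r over the 9 libraries, 8 for TFRC and 3 for the others, of which the first is given. HBB, HBM, KLF1, RHAG, PCNA, CD5L, MARCO, FAM96B, ACTA2, PDGFRB and EPCAM were named after their values were seen. Alternatives were other pseudocounts, filters, scalings, weights and variance priors, a fit of only the groups compared, the Y-linked gene EIF1AY as a stand-in for sex, a replicate block and leaving out each pig. Serum and growth data of the study were not analysed here. The gene most like ACO1 is not reported here.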

Additional observations from a re-analysis of the deposited data

How the results depend on the processing

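With 3 pigs a group, no counts and no sex in the labels, values rest on few libraries. The call of TFRC in the low-iron group against control was kept under all alternatives, at log2 2.74 to 3.01 and, with 1 pig left out, 2.40 to 3.49, and the count of called members there was 1 throughout. In the high-iron group against control the count of called members was 0, since TFRC lost its call, with pseudocount 1 (1.19), no filter (1.27), median-of-ratios scaling (1.16), quantile normalization (1.24), no trend (1.27) and EIF1AY as a covariate (0.93). With 1 pig left out this count was 0 to 1 and TFRC 0.86 to 1.70, the call being lost without low-iron 2, control 4, control 6, high-iron 2 or high-iron 8. In high-iron against low-iron pigs the count was 0 to 2 and TFRC -2.22 to -1.13, with the TFRC call lost without low-iron 2, low-iron 3, high-iron 7 or high-iron 8, and the cause was not tested. The exact F test of TFRC gave 0.0107 to 0.0857.

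Animal numbers 2 and 7 are shared by the low-iron and high-iron groups, and the sources do not say whether they mark a shared litter or day. The deviations of same-numbered pigs correlated by 0.018 and 0.021. With a replicate block the TFRC difference was -0.98, under the fold threshold, the count of called members 0 and the calls over all genes 458 in place of 194, and the signs of TFR2 (0.0682), TF (0.0147) and PICA (0.0046) turned.

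Other signs turned near 0. In the low-iron group against control these were TF with median-of-ratios (-0.017) and IREB2 with quantile normalization (-0.0154), and in the high-iron group TFR2 with median-of-ratios (-0.038) and array weights (-0.034) and TF with rescaling to TPM (0.0216), quantile normalization (0.0035) and array weights (0.0436). In high-iron against low-iron pigs they were TFR2 (0.0109) and PICA (0.0167) with TPM, TFR2 (0.0442), PICA (0.0172) and FBXL5 (0.0055) with quantile normalization, and PICA (0.02) and FBXL5 (0.0369) with array weights. With 1 pig left out, low-iron against control ranged from -0.0229 to 0.2 for TF, -0.0569 to 0.519 for SLC39A14, -0.0225 to 0.204 for ACO1 and -0.149 to 0.255 for IREB2. High-iron against control ranged from -0.0145 to 0.187 for TFR2, -0.0784 to 0.0734 for TF and -0.235 to 0.151 for SLC11A2. High-iron against low-iron ranged from -0.143 to 0.0501 for TFR2, -0.204 to 0.0185 for TF, -0.0441 to 0.0298 for PICA and -0.178 to 0.0456 for FBXL5. The exact F test of STEAP3 gave 0.0393 and 0.0464 with median-of-ratios and quantile normalization and 0.0036 to 0.1571 with 1 pig left out, and that of PICA, 0.1714 over all pigs, gave 0.0286 to 0.4571, both lowest without control 5.

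Median-of-ratios scaling moved the median of all genes in the high-iron group against control by -0.11 on the log2 scale. Higher and lower calls, 75 and 36, 160 and 37, and 127 and 67 in the 3 comparisons, became 53 and 48, 98 and 52, and 110 and 75 with it, and 52 and 58, 82 and 59, and 91 and 92 with quantile normalization. All calls, 111, 197 and 194, became 34, 74 and 67 with pseudocount 1, 331, 504 and 458 without a filter and 171, 275 and 334 with array weights.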
